A study of Homo sapiens with 6 samples.

Results

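Forkhead genes encode transcription factors that share a DNA-binding domain, the forkhead box, and are named FOX followed by a subclass letter and a number. The members described here were the genes of the deposited count table whose symbol in GENCODE 29 has that form, with a letter from A to S, which gave 44 of 58735 genes. All 44 were annotated as protein coding. The cells were BT549, an established basal-like (triple-negative) breast cancer cell line, plated at 100000 cells per 10 cm dish. A group of 3 libraries came from cells given the solvent DMSO and the other group of 3 from cells given AS1842856, both for 48 h. The sample labels give 200 nM as the dose of AS1842856, while the text of the study gives a higher dose, and which was used could not be settled from the files. BT549 is 1 cell line with no engineered allele in either group, and the libraries, called A, B and C in both groups, are named biological replicates by the study.

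AS1842856 is a small molecule that, by the study's account, binds unphosphorylated FOXO1 protein and hinders its direct contact with DNA. The study proposes that the compound modulates FOXO1 and is not only an inhibitor of it. FOXO1, FOXO3, FOXO4 and FOXO6 form the FOXO subclass. In growing cells, the kinases AKT and SGK phosphorylate these proteins, which are then held in the cytoplasm, and when that signal is low they enter the nucleus and act on genes of cell cycle arrest, cell death, stress defence and metabolism. Other forkhead proteins have other roles: FOXM1 drives genes of mitosis, FOXA1 opens chromatin in luminal breast cells, and FOXD1, FOXC1, FOXF2 and FOXE1 act in the development of kidney, eye, mesenchyme and thyroid.

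What joins these genes is the helix of the forkhead box that lies in the major groove of DNA. A run of 10 codons of this helix was searched for by translating the GENCODE 29 transcripts, as tryptophan, then lysine, arginine or glutamine, then asparagine, serine or alanine, isoleucine or valine, arginine, histidine, asparagine, leucine and serine. It was found in 34 of the 44 members, where FOXH1 was left out of the count whatever its sequence. The 30 coding bases are shown for FOXO1, FOXO3, FOXO6, FOXD1 and FOXN3, as examples from 3 subclasses, with the triplet of the histidine, a residue that contacts DNA, in capitals.
FOXO1: tggaagaattcaattcgtCATaatctgtcc
FOXO3: tggaagaactccatccggCACaacctgtca
FOXO6: tggaagaactccatccggCACaacctgtcg
FOXD1: tggcagaacagcatccgcCACaacctctcg
FOXN3: tggaaaaactcagtgagaCACaatttatca
The histidine was coded by CAC in 29 of the 34 members and by CAT in 5, FOXO1 among them. The other members had between 18 and 27 of the 30 bases in common with FOXO1, position by position. FOXO3 and FOXO6 each had 23, FOXN3 had 20 and FOXD1 had 19. FOXN2 had the highest number, 27. The bases of FOXD1 were the same in 5 members, FOXC1 among them, so those genes cannot be told apart over this stretch.

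The 300 bases around the starts of the 3 FOXO genes that were measured well enough to test are shown next, since FOXO1 and FOXO3 were higher after AS1842856 and FOXO4 was lower. They run from 250 bases before to 50 bases after a RefSeq transcript start in GRCh38.p14, on the strand of the gene. The capitals mark GTAAACA, a form of the core sequence that forkhead proteins bind, and other forms of it were not searched for. FOXO3 had further windows, and the first by position is shown. The FOXO4 window ends at 71095900, before the start of that gene in GENCODE 29 at 71096197.
FOXO1, chr13:40666592-40666891, minus strand: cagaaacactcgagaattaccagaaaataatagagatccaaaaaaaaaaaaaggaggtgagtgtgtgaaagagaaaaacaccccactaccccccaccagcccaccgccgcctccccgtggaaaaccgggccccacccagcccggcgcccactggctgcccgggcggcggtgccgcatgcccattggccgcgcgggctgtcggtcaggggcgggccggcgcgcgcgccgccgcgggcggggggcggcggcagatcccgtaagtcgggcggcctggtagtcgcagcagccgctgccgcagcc
FOXO3, chr6:108559575-108559874, plus strand: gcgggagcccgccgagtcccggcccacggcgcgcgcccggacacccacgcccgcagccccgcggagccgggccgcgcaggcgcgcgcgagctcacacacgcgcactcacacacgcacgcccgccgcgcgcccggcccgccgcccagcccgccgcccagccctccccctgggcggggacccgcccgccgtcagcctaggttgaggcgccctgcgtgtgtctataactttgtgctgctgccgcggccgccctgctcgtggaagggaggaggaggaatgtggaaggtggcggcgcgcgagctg
FOXO4, chrX:71095601-71095900, plus strand: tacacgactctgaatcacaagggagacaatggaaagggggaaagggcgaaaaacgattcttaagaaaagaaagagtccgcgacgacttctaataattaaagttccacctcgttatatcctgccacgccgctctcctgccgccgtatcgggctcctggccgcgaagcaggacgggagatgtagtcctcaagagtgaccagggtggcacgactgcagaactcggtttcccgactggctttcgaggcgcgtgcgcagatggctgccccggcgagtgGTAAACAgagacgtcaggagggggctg
GTAAACA was searched on both strands in 44 windows of 33 members. It was present in windows of 2 members, FOXO4, where it lay 23 bases after the RefSeq start, and FOXP1. Among all 35116 RefSeq windows of this length, 3.42% held it. CTTTGAT or CTTTGAA, the core bound by TCF/LEF factors, was in windows of 2 members, FOXP2 and FOXR2, and in 6.86% of all windows. A match is a run of letters and was not tested for binding.

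Library totals ran from 15289500 to 22981832 counts, and replicates differed by more than counting error, as their chi-square over its degrees of freedom was 2.37 to 3.29. Markers were read as FPKM, counts divided by exon length and library size, as mean ± SD of 3 libraries. All 6 mesenchymal markers were present, with VIM at 254.6 ± 9.67 in DMSO and 201.5 ± 3.62 in AS1842856 and AXL at 81.5 ± 1.24 and 25.9 ± 1.20. They all passed the test used below, 5 lower and FN1 higher, and their summed level was 485.7 to 500.8 FPKM in DMSO and 377.3 to 382.7 in AS1842856. Of 8 luminal or epithelial markers, ESR1, PGR, CDH1 and EPCAM had at most 8 counts in any library, while GATA3 was at 14.7 ± 0.694 and 17.8 ± 1.24 and the keratins KRT8 and KRT18 went from 5.90 ± 0.267 to 0.60 ± 0.0436 and from 10.5 ± 1.07 to 1.07 ± 0.024. KRT19, a further keratin of this list, went from 1.28 ± 0.342 to 3.997 ± 0.23 FPKM, and GATA3 and the 3 keratins were called. The summed level of these 8 was 31.8 to 33.1 FPKM in DMSO and 22.3 to 24.4 in AS1842856. Of 3 basal keratins, KRT5 and KRT14 had at most 1 count in any library. KRT17 had 1, 2 and 5 counts in DMSO and 18, 30 and 22 in AS1842856 and was called higher. KRT17 passed the filter on low counts only through its AS1842856 libraries, so it had to be higher. Of 4 leukocyte and 3 endothelial markers, CD3E and CDH5 were at 0 in every library, and all others but PTPRC had at most 6 counts in any library. PTPRC went from 0.125 ± 0.0467 to 0.342 ± 0.0516 FPKM and was called higher, by 1.48 on the log2 scale. The part of these marker changes in the forkhead results was not tested.

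Not all forkhead genes were measured in these cells. Of the 44, 9 had no count in any library: FOXB2, FOXC2, FOXI2, FOXI3, FOXN1, FOXN4, FOXQ1, FOXR1 and FOXR2. A count of 0 allows up to 3 counts in a library, or 0.13 to 0.196 CPM, in which each library's counts are divided by its total, and this limit covers counting error only. A further 13 had counts but did not pass the filter on low counts, which left 22 members to test. Of the genes below the filter, FOXD4 had the highest total, with 7, 10 and 3 counts in DMSO and 5, 17 and 5 in AS1842856. Both groups of FOXD4 overlapped, and FOXD4 has close copies in the genome, so its count is uncertain. FOXH1 had 35 counts in all and FOXD3 had 28, but both share exon bases with a gene on the opposite strand, KIFC2 and FOXD3-AS1. FOXP3, the factor of regulatory T cells, had 26 counts and overlaps CCDC22, which had far more. FOXE3, which acts in the lens, had 15. FOXO6, the remaining FOXO gene, had 1, 1 and 3 counts in DMSO and 5, 1 and 0 in AS1842856. Of the 22 members below the filter, 8 had all their exons in 1 block, against 4 of the 22 tested.

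The test was edgeR's quasi-likelihood test over all 14338 genes that passed the filter, with Benjamini-Hochberg adjustment, and a gene is called where its adjusted p was below 0.05. Values per library are CPM after TMM scaling, and changes are log2 fold changes of AS1842856 over DMSO with their standard errors (SE). Of the 22 forkhead genes tested, 18 were called, 10 higher and 8 lower after AS1842856. Over all genes tested, 56% were called, 27.6% higher and 28.4% lower. Called changes with a log2 value of 1 or more in size were found in 7 of the 22, against 10.6% of all genes, and the groups did not overlap in 18 of the 22, against 59.9% of all genes. The median log2 fold change of the 22 was 0.02 and that of all genes 0.003, with members called in both directions. In bulk RNA, fewer cells that express a gene and less RNA per cell cannot be told apart. FOXB1 passed the filter only through its AS1842856 libraries, so it had to be higher. Without it, 17 of 21 members were called, 9 of them higher, with 6 called changes of 1 or more and 17 members whose groups did not overlap.

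**Figure D1:**
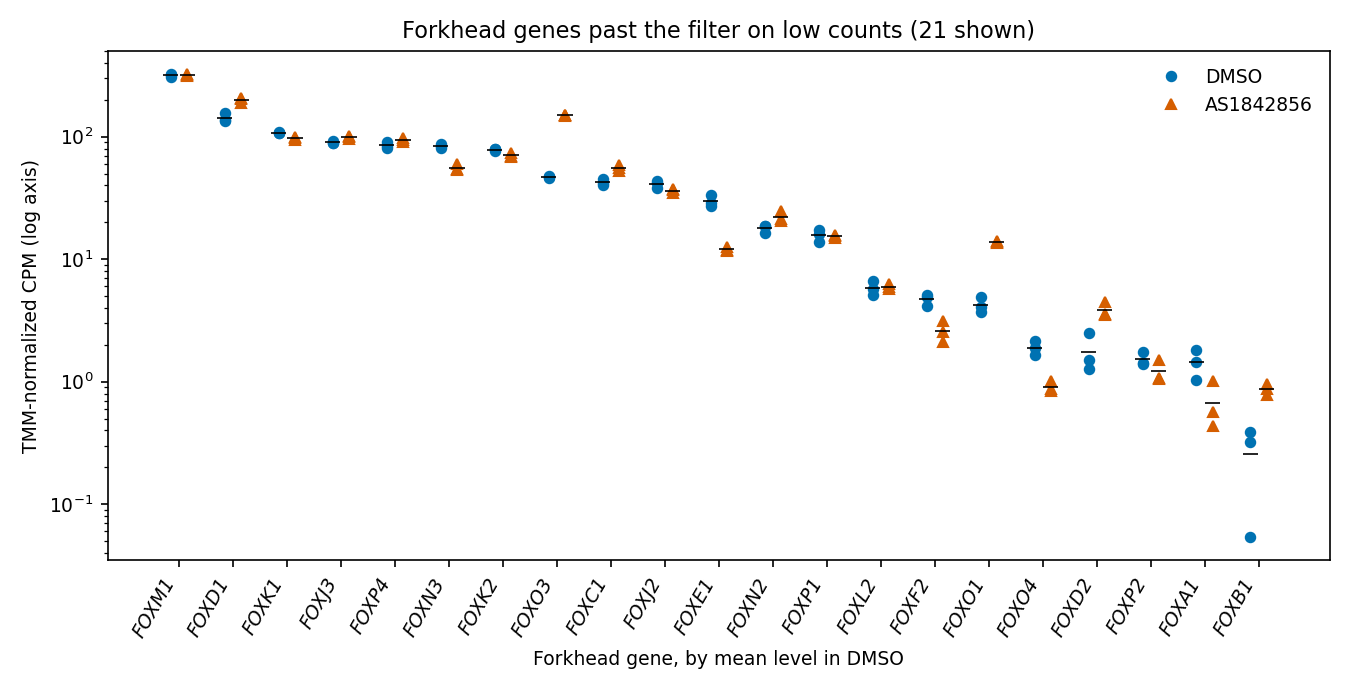
Level of 21 of the 22 forkhead genes tested in each library, as TMM-normalized CPM on a log axis, with DMSO as circles, AS1842856 as triangles and the mean of 3 libraries as a bar. FOXO3 and FOXO1 stand clear of their DMSO levels, FOXE1 lies clearly below, and FOXM1 lies between 309.9 and 325.8 CPM in all 6 libraries.

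The FOXO genes, the class that AS1842856 is used against, did not move together. FOXO3, the most abundant of them, was at 47.5, 46.4 and 46.5 CPM in DMSO libraries A, B and C and at 150.1, 146.9 and 151.5 in AS1842856 libraries A, B and C. No library of either group came near the other group. FOXO3 rose by 1.67 on the log2 scale (SE 0.05, adjusted p = 3.70e-96). FOXO3 lies on chr6:108559835-108684774 in GRCh38, and the processed pseudogene FOXO3B on chr17:18670946-18672873 repeats part of it. Of the stretches of 100 bases in the FOXO3 transcript, 11.6% were also in FOXO3B, and of those in FOXO3B, 45.8% were in FOXO3. FOXO3B had 17.8% as many counts as FOXO3 in DMSO and 8.86% in AS1842856, and it was called higher too, by 0.67 on the log2 scale (adjusted p = 1.13e-07), on reads that may belong to FOXO3. With both counts summed, a setting added after the data were seen, the log2 fold change was 1.56.

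FOXO1, the stated target of the compound, lies on the minus strand of chr13:40469953-40666597. It had 81, 75 and 76 counts in DMSO and 230, 308 and 249 in AS1842856, which is 3.69, 4.88 and 4.09 CPM against 13.80, 13.49 and 13.96 CPM. The groups were far apart. FOXO1 rose by 1.72 on the log2 scale (SE 0.13, adjusted p = 4.16e-28), and the change lay between 1.62 and 1.82 when each library was left out in turn. LINC00598, a noncoding gene on the same strand that shares 269 exon bases with FOXO1, had 0.69% as many counts.

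FOXO4, on chrX:71096197-71103535, went the other way. It had 36, 29 and 40 counts in DMSO and 14, 20 and 18 in AS1842856, or 1.64, 1.89 and 2.15 CPM against 0.840, 0.876 and 1.009. All AS1842856 libraries were below all DMSO libraries, at a level that rests on few reads. Its log2 fold change was -1.05 (SE 0.33, adjusted p = 0.0039).

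These opposite changes altered the mix of FOXO transcripts. Between genes, levels are compared per length, as FPKM. FOXO3 was 9.08 ± 1.37 times FOXO1 in DMSO and 8.78 ± 0.018 times in AS1842856, a ratio within the DMSO spread. FOXO1 was 1.24 ± 0.190 times FOXO4 in DMSO and 8.42 ± 0.723 times in AS1842856, and the lowest AS1842856 library, at 7.65, was above the highest DMSO library, at 1.43. Added up, FOXO1, FOXO3, FOXO4 and FOXO6 had 7.28 ± 0.0664 FPKM in DMSO and 21.7 ± 0.36 in AS1842856. By these levels FOXO3 made up most of the FOXO transcripts in both groups.

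**Figure D2:**
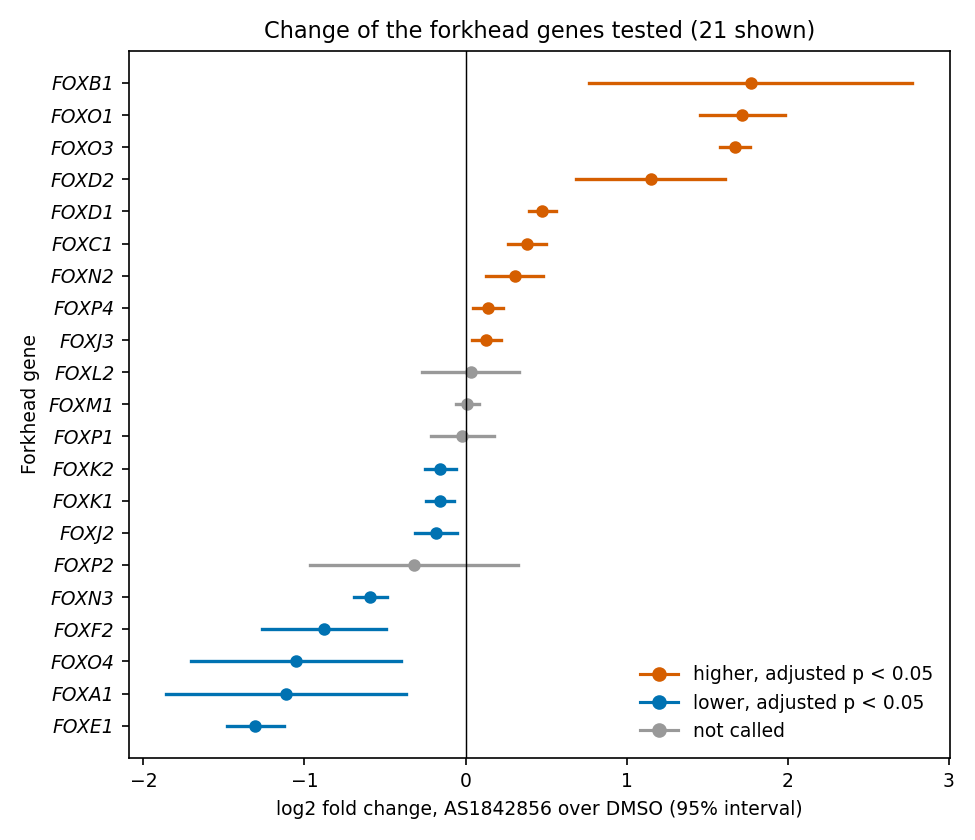
Log2 fold change of AS1842856 over DMSO for 21 of the 22 forkhead genes tested, as points with 95% intervals, ordered by size and coloured by the call at an adjusted p of 0.05. FOXO1, at 1.72, and FOXO3, at 1.67, lie far to the right, FOXE1, at -1.31, is the lowest, and FOXM1 lies near 0. FOXB1, at the top, was tested only because its AS1842856 libraries passed the filter.

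Of the other members that were higher, FOXD1 was abundant. FOXD1, which marks the stroma of the developing kidney, had 156.3, 133.5 and 138.1 CPM in DMSO and 202.0, 207.4 and 187.5 in AS1842856, with no overlap. Its log2 fold change was 0.48 (SE 0.04, adjusted p = 9.59e-19), and FOXD1-AS1, which shares 424 of its exon bases, had no counts.

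FOXD2 and FOXB1 were higher from low levels. FOXD2, a relative of FOXD1 on chromosome 1, had 1.28, 1.498 and 2.48 CPM in DMSO and 3.60, 4.47 and 3.48 in AS1842856. DMSO library C was closest to the AS1842856 libraries, and the groups did not overlap. FOXD2 rose by 1.15 on the log2 scale (SE 0.23, adjusted p = 6.03e-06), and by 0.94 to 1.49 over the fits that left out 1 library. FOXD2-AS1, a noncoding gene that lies 1375 bases from FOXD2 and was chosen after its values were seen, was also higher, by 1.002 on the log2 scale (adjusted p = 6.16e-07). FOXB1, a gene of the developing midbrain and hypothalamus, had 7, 6 and 1 counts in DMSO and 13, 20 and 17 in AS1842856. Its DMSO libraries were all below the filter's cut-off, so a higher level in AS1842856 was a condition of its being tested. The log2 fold change was 1.77 (SE 0.51, adjusted p = 0.0015).

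Smaller rises were called for FOXC1, FOXN2, FOXP4 and FOXJ3. FOXC1, a factor of eye and mesenchyme that is high in basal-like breast cancer, had 44.8, 41.9 and 40.3 CPM in DMSO and 58.3, 55.4 and 52.1 in AS1842856, with no overlap. Its log2 fold change was 0.38 (SE 0.06, adjusted p = 2.47e-09). FOXN2, a broadly expressed member, went from 17.9 ± 1.31 to 22.1 ± 2.43 CPM, a log2 change of 0.30 (adjusted p = 0.00184) that was no longer called without AS1842856 library A (adjusted p = 0.0596). In that library FOXN2 was higher than in the rest. FOXP4, a transcriptional repressor that acts in lung and gut development, went from 85.0 ± 4.67 to 94.03 ± 3.28 CPM, a log2 change of 0.14 (adjusted p = 0.00673). Its groups came within 1 CPM of each other, and the call was lost without DMSO library B (adjusted p = 0.0776) or AS1842856 library A (adjusted p = 0.0517). FOXJ3, a broadly expressed activator, went from 90.6 ± 1.97 to 99.0 ± 2.75 CPM, a log2 change of 0.13 (adjusted p = 0.0104), and was not called without DMSO library C (adjusted p = 0.0518) or AS1842856 library A (adjusted p = 0.0548).

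Among the 8 members that were lower, FOXE1 changed most. FOXE1, a thyroid factor on chr9:97853254-97856715, had 33.4, 27.2 and 28.5 CPM in DMSO and 11.9, 12.6 and 11.7 in AS1842856. The 3 AS1842856 libraries were close together and far below the lowest DMSO library. FOXE1 had a log2 fold change of -1.31 (SE 0.09, adjusted p = 1.45e-33). FOXN3, a repressor linked to cell cycle checkpoints, had 83.9, 87.3 and 80.7 CPM in DMSO and 59.8, 53.6 and 54.2 in AS1842856. Its groups did not overlap either, with a log2 fold change of -0.59 (SE 0.05, adjusted p = 1.87e-23), while FOXN3-AS1 in the same locus was not called (adjusted p = 0.412).

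FOXF2 and FOXA1 were lower at low levels. FOXF2, a mesenchymal factor, had 5.15, 4.17 and 4.95 CPM in DMSO and 2.10, 2.54 and 3.14 in AS1842856, with no overlap. Its log2 fold change was -0.88 (SE 0.20, adjusted p = 3.58e-05). FOXA1, the luminal factor, had 32, 28 and 19 counts in DMSO and 17, 10 and 10 in AS1842856. In CPM its lowest DMSO library, at 1.023, and its highest AS1842856 library, at 1.020, all but met. The log2 fold change was -1.11 (SE 0.38, adjusted p = 0.00755), and the call was lost without DMSO library B (adjusted p = 0.0649), without AS1842856 library B (adjusted p = 0.087) and by DESeq2 (adjusted p = 0.0689).

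FOXK1, FOXK2 and FOXJ2 were lower by little. FOXK1, which acts on metabolic and autophagy genes, had 109.9, 106.6 and 106.9 CPM in DMSO and 99.9, 93.3 and 97.1 in AS1842856, a log2 change of -0.16 (SE 0.04, adjusted p = 0.00116). Its relative FOXK2 had 79.7, 76.9 and 78.9 CPM in DMSO and 68.7, 69.3 and 73.6 in AS1842856, also a log2 change of -0.16 (SE 0.05, adjusted p = 0.00435). Neither gene had overlapping groups. FOXK2 shares 53 exon bases with WDR45B on the opposite strand, which had 102.5% as many counts and a log2 change of -0.17 (adjusted p = 0.00178). FOXJ2 went from 41.3 ± 2.92 to 36.3 ± 1.19 CPM, a log2 change of -0.18 (SE 0.06, adjusted p = 0.0106), and was not called by DESeq2 (adjusted p = 0.0658), without DMSO library C (adjusted p = 0.092) or without AS1842856 library C (adjusted p = 0.0549).

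The remaining 4 members tested were not called. FOXM1, the mitotic activator, had 317.9, 309.9 and 325.8 CPM in DMSO and 315.6, 323.8 and 321.5 in AS1842856. The groups lay over each other, and the log2 fold change of 0.01 had a 95% interval from -0.06 to 0.08. That interval allows only a small change in either direction. FOXM1 shares 781 exon bases with ITFG2 on the opposite strand, which had 9.64% as many counts and was not called (adjusted p = 0.938). RHNO1, which overlaps the start of FOXM1 on the opposite strand with no shared exon bases, was lower, at a log2 change of -0.41 (adjusted p = 2.75e-09).

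FOXP1, a regulator of B cells and neurons, had 13.8, 16.0 and 17.2 CPM in DMSO and 15.8, 14.9 and 15.5 in AS1842856, and its log2 fold change of -0.02 had an interval from -0.22 to 0.17. AC097634.4, a gene on the same strand that shares 2539 exon bases with FOXP1, had no counts. FOXL2, the ovarian factor, went from 5.82 ± 0.746 to 5.95 ± 0.279 CPM, with an interval from -0.27 to 0.33. FOXP2, a gene of speech and motor circuits, had 1.41, 1.76 and 1.40 CPM in DMSO and 1.08, 1.05 and 1.51 in AS1842856. Its interval ran from -0.97 to 0.32. A fall of the size seen in FOXN3 could therefore not be told from no change for FOXP2 at this depth.

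Some members lie side by side on a chromosome. On chromosome 6, FOXQ1, FOXF2 and FOXC1 follow each other with gaps of 74827 and 214368 bases. FOXQ1 had no counts, FOXF2 was lower and FOXC1 was higher. On chromosome 16, FOXF1, FOXC2 and FOXL1 had 12, 0 and 1 counts over all 6 libraries. On chromosome 1, FOXE3, at 15 counts, lies 17964 bases from FOXD2, which was higher.

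Levels per length gave the order of the genes within a group. The deposited FPKM values used the length of all exons of a gene joined, which they matched within 5% for all 9632 genes with at least 100 counts in each library. FOXP1, with 36714 such bases against 8994 in its longest transcript, therefore reads low on this scale. In DMSO, FOXM1 was first at 64.5 ± 1.68 FPKM and FOXD1 next at 54.0 ± 4.64, with no overlap of their libraries. FOXP4 at 13.7 ± 0.77 and FOXJ3 at 13.1 ± 0.266 came next and overlapped each other, as did FOXE1 with FOXK1, FOXK2 with FOXN3 and FOXJ2 with FOXO3. FOXC1 at 10.7 ± 0.581 did not overlap FOXE1 below it. FOXO3 was the 12th at 6.02 ± 0.0878, and FOXN2 followed at 3.24 ± 0.236. FOXL2 and FOXF2 overlapped near 2 FPKM, and FOXO1 at 0.673 ± 0.0958 overlapped FOXO4 at 0.546 ± 0.0738.

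In AS1842856 the order was another. FOXD1 was first at 75.4 ± 3.97 FPKM and FOXM1 next at 65.0 ± 0.813, again without overlap. With the longest transcript as the length, FOXM1 made up 28.5 ± 0.715% of the family's summed level and FOXD1 27.2 ± 1.01%. FOXM1 was then above FOXD1 in every AS1842856 library, so first place depended on the length used. FOXO3 was the 3rd at 19.2 ± 0.296, but its libraries overlapped those of the gene ranked next, so this place was not settled. FOXE1 went from rank 7 to rank 13, at 3.46 ± 0.137, and FOXO1 stood at rank 14, at 2.19 ± 0.0375, with no overlap between them. These ranks follow from the changes given above and from the lengths used, and were not tested.

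**Figure D3:**
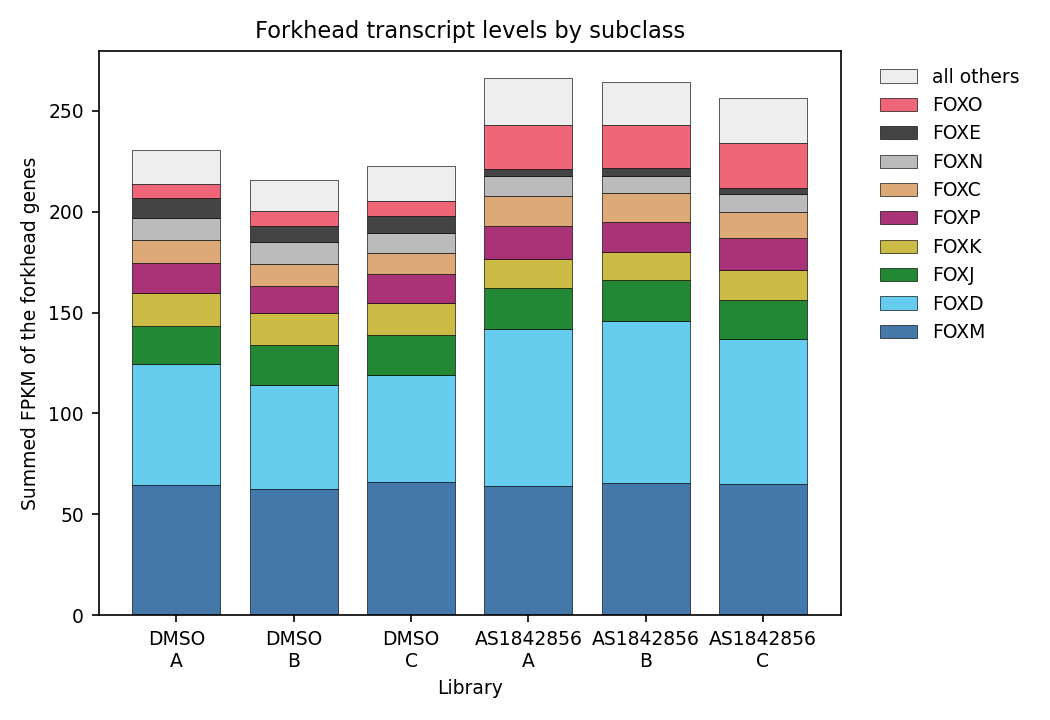
Summed FPKM of the forkhead genes in each library, split by subclass, with bars starting at 0. FOXM and FOXD fill the lower part of every bar, the FOXO layer near the top is thicker in all 3 AS1842856 libraries, and the FOXE layer is thinner.

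Summed over the family, forkhead transcripts had 230.7, 215.8 and 222.4 FPKM in DMSO and 266.4, 264.3 and 256.4 in AS1842856. The sum was higher in every AS1842856 library than in any DMSO library, and the family's share of all counts went the same way, from 0.117 to 0.121% in DMSO to between 0.134 and 0.138%. FOXM1 made up 28.9 ± 0.888% of the sum in DMSO and 24.8 ± 0.677% in AS1842856, while its own log2 fold change was 0.01. The FOXD subclass made up 24.5 ± 1.22% and 29.2 ± 1.12%, and the FOXO subclass 3.27 ± 0.134% and 8.29 ± 0.259%. FOXE fell to 1.34 ± 0.0432% from 3.84 ± 0.314%. With counts divided by the longest transcript instead, the FOXO share was 2.77 ± 0.105% and 7.17 ± 0.212%. These shares are descriptions of transcript levels, and protein was not measured here.

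The genes that act on FOXO proteins and those that FOXO and FOXM1 are known to act on were read from lists written from general knowledge. Of 36 genes that regulate FOXO proteins (kinases, phosphatases, acetylases, ubiquitin ligases and binding partners), 35 were tested and 20 were called, 11 higher and 9 lower, and their median change was 0.03 on the log2 scale. At 57.1%, that share was near the 56% of all genes. No called regulator changed by 1 or more on the log2 scale. SGK3 and SGK1, kinases of FOXO proteins, changed by 0.62 (adjusted p = 6.48e-09) and -0.50 (adjusted p = 2.39e-07). The kinase CSNK1A1 was higher by 0.42 (adjusted p = 6.31e-23).

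Of the 37 entries for FOXO target genes, 28 were tested and 21 were called, 7 higher and 14 lower. That was 75% called, against 56% of all genes tested. Their median change was -0.47 on the log2 scale. FBXO32, a ubiquitin ligase of muscle atrophy, had 162.1, 168.7 and 164.7 CPM in DMSO and 40.8, 41.1 and 37.2 in AS1842856, a log2 change of -2.05 (adjusted p = 2.05e-113). BCL2L11, which encodes the cell death protein BIM, went the other way, from 6.83, 8.86 and 6.94 CPM to 24.5, 25.9 and 25.8, a log2 change of 1.77 (adjusted p = 2.06e-42). KLF2, a transcription factor, and SOD2, the mitochondrial superoxide dismutase, were lower by -1.66 (adjusted p = 1.26e-33) and -1.19 (adjusted p = 8.51e-85).

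Of 22 FOXM1 target genes, all were tested, 19 were lower and 0 were higher by edgeR, and their median change was -0.24 on the log2 scale. At an unadjusted p below 0.05 the counts were 20 and 0, and DESeq2 called 20 lower and 0 higher. Of all genes tested, 28.4% were called lower and 27.6% higher. KIF20A, a kinesin of cytokinesis, was lower by -0.65 (adjusted p = 4.2e-44), and TOP2A, the topoisomerase of dividing cells, by -0.54 (adjusted p = 1.46e-37). AURKB, a mitotic kinase, and TPX2, a spindle protein, had log2 changes of -0.46 (adjusted p = 2.01e-23) and -0.45 (adjusted p = 1.66e-29). CCNB1, UBE2C and PLK1 were not called. Of the 6 partners of FOXM1 in the MuvB and B-MYB complex, MYBL2 was lower at -0.49 (adjusted p = 1.38e-33), RBBP4 was lower at -0.15 (adjusted p = 0.00013), LIN9 was higher at 0.21 (adjusted p = 0.00394) and 3 were not called, which left 50% called against 56% of all genes.

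**Figure D4:**
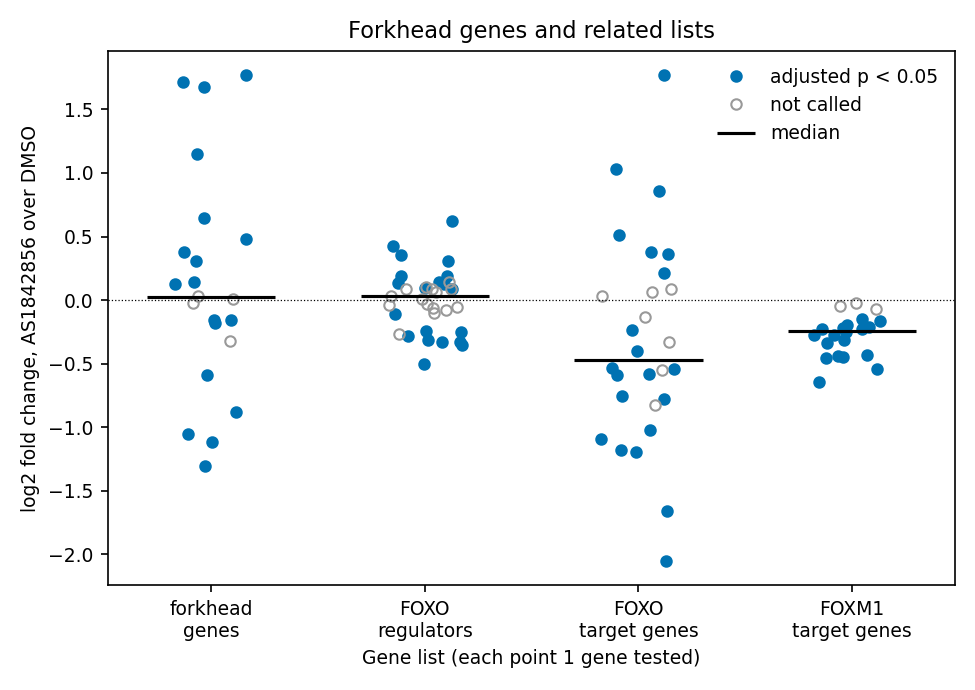
Log2 fold change of AS1842856 over DMSO for the genes tested of 4 lists, 1 point per gene, filled where the adjusted p was below 0.05, with a bar at the list's median. The forkhead genes and FOXO targets spread to both sides of 0, the FOXO regulators stay within 1 of it, and the FOXM1 targets all lie below it.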

How the data were processed

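RNA-Seq was done on BT549 cells, 3 libraries per group. The text of the study names STAR for mapping, and the authors deposited unnormalized counts per gene. The authors also deposited FPKM values for 25015 genes, 34 of them members. The submitters' processing notes name GRCh38, CASAVA and Bowtie 0.12.2. Which of STAR and Bowtie gave the mapping behind the counts could not be settled from these sources. The counting tool and its use of strand are not given in the sources used here. Groups and letters came from the sample labels. The members and lists were chosen with earlier results of these data known, and the lists were not compared with a database.

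Counts were filtered with filterByExpr (minimum count 10, minimum total 15), scaled by TMM (factors 0.995 to 1.01) and tested with glmQLFit (robust) and glmQLFTest in edgeR 4.0.16 under R 4.3.3, with no block, after a test on simulated data. The common biological coefficient of variation was 0.0374. The SE was the size of the log2 fold change over the square root of F. The rule named all members past the filter, the 5 with most counts below it and the 4 largest called changes of each list, and FOXO6 and the members of gene clusters were added. Results of some genes, which are in the counts, are not reported here. Alternatives were DESeq2 1.42.0, other scalings and filters, each library left out, a replicate block, and limma 3.58.1 on log2(FPKM + 1) or log2(FPKM + 0.1) from a mean FPKM of 0.5. Annotation was GENCODE 29 (Ensembl 94), and promoters were from RefSeq.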

Additional observations from a re-analysis of the deposited data

How the results depend on the processing

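No called member changed direction under any alternative run. FOXL2, FOXM1 and FOXP1, which were not called, crossed 0 in a few of them, between -0.04 and 0.05 on the log2 scale. Without AS1842856 library A, 7 forkhead genes were called higher and 8 lower, in place of 10 and 8. The 18 forkhead calls became 15 to 18 when each library was left out and 14 to 18 under the other alternatives, and the 8029 calls over all genes became 7427 to 7678 and 6523 to 8030. The FOXO regulators called (20) ranged from 16 to 20, the FOXO targets (21) from 18 to 22 and the FOXM1 targets (19) from 18 to 20. The count of forkhead genes called with a log2 change of at least 1 was examined after the data were seen. It was 7, and 6 to 8 with a library left out. Requiring 50 counts on average gave 4, where 18 members were tested, and it was 2 on log2(FPKM + 1) with or without the filter, and 3 on log2(FPKM + 0.1). The filtered FPKM settings tested 17 members, so fewer members were tested under them too, and a pseudocount understates changes of low genes. Among the alternative values for single members, 302 kept their side of the threshold and 15 lost the call, for FOXA1, FOXJ2, FOXJ3, FOXN2 and FOXP4. Without the filter, limma on log2(FPKM + 1) did not call FOXA1, FOXJ2, FOXN2 or FOXP4 (adjusted p = 0.0959, 0.0864, 0.0835 and 0.084).

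With group means removed, same-lettered libraries had correlations of 0.042, -0.012 and -0.003, and differently lettered ones from -0.028 to 0.03. No strong pairing by letter was seen. Whether the letters mark a shared batch cannot be told from 3 libraries per group. With the replicate letter as a block, 18 forkhead genes and 7862 of all genes were called. At this depth a change in the 22 members below the filter, or a small one in FOXP2, was not detectable.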
